A study of Mus musculus with 4 samples.

Results

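The genes described here are 10 mouse genes of serpin clade A: Serpina4-ps1, Serpina1a, Serpina1b, Serpina1e, Serpina3k, Serpina3m, Serpina3n, Serpina6, Serpina7 and Serpina12. They were taken from a list of symbols, and every array probe that carries a listed symbol as its gene name was used. The arrays hold such a probe for 9 of the 10 genes, with 13 probes in all, among 30439 genes and transcripts represented on the array. Serpina1b has no probe of its own. The list was chosen on measured differences of these same arrays, with the genotype difference of Serpina4-ps1 already known, so all values of the listed genes are given as a description and without a test. The name of a cluster holds for 9 of the listed genes, which lie together on chromosome 12. Serpina7 lies on chromosome X and belongs with the others by its protein family only.

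Serpins are secreted or intracellular proteins with a shared fold, and most of them inhibit serine proteases by trapping the enzyme after it cuts an exposed loop. The liver secretes the clade A members into plasma in large amounts. Serpina1 genes encode alpha-1 antitrypsin, the main plasma inhibitor of neutrophil elastase, and Serpina3 genes encode relatives of antichymotrypsin. Both groups have been multiplied in the mouse into sets of near-identical neighbours. Some members do not inhibit proteases and carry hormones instead: Serpina6 encodes corticosteroid-binding globulin and Serpina7 encodes thyroxine-binding globulin. Serpina12 encodes vaspin, which is known as an adipokine.

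Liver RNA of male C57BL/6J mice on a high-fat diet (HFD) for 24 weeks was measured on 4 one-color Agilent arrays, 1 for each of 4 groups. Control (Cont) livers came from Drp1 flox/flox littermates, labelled wild type, and Drp1LiKO livers from mice that also carry Cre driven by the albumin promoter, which deletes Drp1, the dynamin-related GTPase of mitochondrial fission, in hepatocytes. One liver of each genotype is labelled refed, and the series text gives a fast of 17 h and 4 h of refeeding. For the other 2 livers the labels state no feeding and give the raw data as shared with earlier submissions, so these livers are called fasted here only from the methods of the study, and the labels give no age for any group.

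All 4 arrays lay on 1 slide and were read in 1 scan. Signals below are the processed signals of the scanner software, on a linear scale and corrected for background within each array. To compare arrays, the 75th percentile of all signals on an array was taken as its reference and subtracted on the log2 scale. This reference was 460.6 (Cont) and 721.8 (Drp1LiKO) in the fasted pair and 356.9 and 525.7 in the refed pair. The share of gene spots well above background ran from 48.7% to 58.2%. A log2 difference carries a measurement standard error (SE) from the error model of the scanner software, with a median of 0.21 over all genes. This SE holds no spread between animals, and with 1 array per group no p-value can be given. All 10 hepatocyte markers examined were well above background on all 4 arrays. In whole liver, fewer cells of a type and less RNA per cell cannot be told apart. The single probe of Dnm1l, the gene that encodes Drp1, gave a log2 difference of -0.21 (SE 0.20) between the fasted and -0.12 (SE 0.20) between the refed livers. Whether this probe lies in the deleted part is not known, so it does not check the genotype.

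The sequences of the probes set what can be told apart within the family, so the stretches that carry this limit are shown, 5′ to 3′ as on the array. Capitals mark a part of a run of 29 bases that is the same in the probe of Serpina1a, that of Serpina1e and that of the neighbouring Serpina1c.
Serpina1a: aatGTCATCCTTCCTTCTGAATTGGGTTCC
Serpina1e: gaaGTCATCCTTCCTTCTGAATTGGGTTCC
Serpina1c: gatGTCATCCTTCCTTCTGAATTGGGTTCC
In mm9, the genome build of the files, these probes lie on the minus strand of chromosome 12, that of Serpina1a at chr12:105091819-105091878 and that of Serpina1e at chr12:105185172-105185231. Laid over each other, the probes of Serpina1a and Serpina1c differ at 1 of 51 aligned bases, and those of Serpina1a and Serpina1e at 11 of 50. By the transcripts that the array annotation lists for it, the Serpina1c probe also covers Serpina1a, Serpina1b and Serpina1e, and 1 of the 2 Serpina1d probes also covers Serpina1b. These are the probes that list Serpina1b. A signal named for 1 antitrypsin gene can therefore hold RNA of others. The second probe of Serpina1a (chr12:105091979-105092038) and that of Serpina1e (chr12:105185290-105185349) share a longest run of 17 bases.

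The 2 probes of Serpina4-ps1 overlap by design, and capitals mark a part of the 49 bases they share without a difference.
Serpina4-ps1, first probe: aagTGGGAGAGACCCTCCTAGGGTGTCACA
Serpina4-ps1, second probe: aaaTGGGAGAGACCCTCCTAGGGTGTCACA
They lie on the plus strand at chr12:105325060-105325119 and chr12:105325068-105325127, and 52 bases align with 1 mismatch. Both probes read the same stretch of RNA, so they are not independent measurements of the gene. Which exon or untranslated region a probe lies in is not given, since an annotation of the mm9 build was not used here.

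After fasting, 2 of the 9 measured genes, Serpina4-ps1 and Serpina12, were at least 2-fold lower in the Drp1LiKO liver than in the Cont liver, where 5.19% of all 18040 genes were. Serpina7 was at least 2-fold higher, as were 8.06% of all genes. After refeeding, 3 genes were at least 2-fold lower, Serpina4-ps1, Serpina6 and Serpina12, beside 6.33% of 17446 genes. None was at least 2-fold higher, beside 8.05% of all genes. Nothing is read from these shares, because the list was chosen with the genotype differences known. Over the 9 genes the median log2 difference between genotypes was -0.83 after fasting and -0.52 after refeeding, and over all genes it was -0.08 and -0.04. Under quantile normalization, which forces all arrays to the same distribution of signals, the medians of the 9 genes were -0.36 and -0.07.

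**Figure D1:**
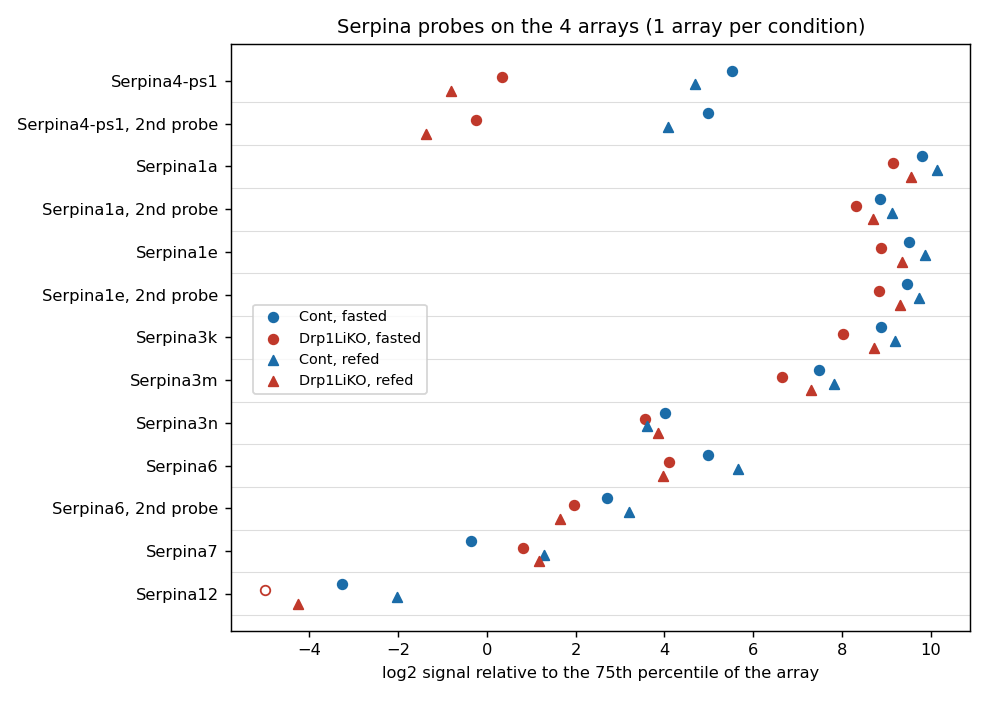
Each row is 1 of the 13 probes, and the x axis gives its log2 signal relative to the 75th percentile of the array. Circles are fasted and triangles refed livers, blue Cont and red Drp1LiKO, with 1 array per symbol and an open symbol where the probe was not well above background. Both Serpina4-ps1 probes show a wide gap between the blue and the red symbols. On this scaled axis the first probe of Serpina1a runs from 9.13 to 10.13 and that of Serpina1e from 8.87 to 9.87.

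Serpina4-ps1 is a pseudogene related to the gene of kallistatin, an inhibitor of tissue kallikrein. Its first probe had a signal of 21034 in Cont and 912 in Drp1LiKO after fasting, and of 9127 and 303 after refeeding. Both Drp1LiKO livers were thus below both Cont livers, and all 4 signals were well above background. The log2 difference between genotypes was -5.18 (SE 0.20) after fasting, which is 36.1-fold lower, and -5.47 (SE 0.21) after refeeding, which is 44.3-fold lower. The overlapping second probe had signals of 14618, 611, 6072 and 204 in the same order of livers. Its differences between genotypes were -5.23 (SE 0.20) and -5.45 (SE 0.21), the same as the first within the SE.

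Serpina4-ps1 was also lower in the refed than in the fasted liver of each genotype. The log2 difference was -0.84 (SE 0.20) in Cont, 1.79-fold lower, and -1.13 (SE 0.21) in Drp1LiKO, 2.19-fold lower. Against 7.15% of 18329 genes at least 2-fold lower after refeeding in Drp1LiKO, Serpina4-ps1 was the 1 listed gene called. The genotype difference after refeeding minus that after fasting was -0.29 (SE 0.29). Under quantile normalization the Cont difference was -1.04 and reached 2-fold. The 4 comparisons use each array in 2 of them, so their values are not independent of each other.

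Serpina1a, which encodes an alpha-1 antitrypsin, had signals of 411767 in Cont and 405373 in Drp1LiKO after fasting, and of 400038 and 393737 after refeeding. The signals of the 4 livers thus lay within a few percent of each other before any scaling. The second Serpina1a probe had 214093, 228273, 198150 and 216452. Relative to the 75th percentile the first probe was lower in Drp1LiKO, by a log2 difference of -0.67 (SE 0.20) between the fasted and -0.58 (SE 0.20) between the refed livers. The second probe gave -0.56 and -0.43. Neither reached 2-fold.

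Serpina1e, a close relative of Serpina1a, had signals of 333965 and 337786 after fasting and of 333432 and 344338 after refeeding, with Cont first in each pair. Its second probe had 322701 and 330010 after fasting and 304172 and 331886 after refeeding. As with Serpina1a, the 4 livers were close in signal on both probes. The scaled log2 differences between genotypes were -0.63 (SE 0.20) and -0.51 (SE 0.20) on the first probe and -0.62 and -0.43 on the second. With refeeding, the scaled differences were positive on all 4 probes of Serpina1a and Serpina1e, from 0.26 to 0.37 in Cont and from 0.38 to 0.49 in Drp1LiKO.

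The size and sign of these antitrypsin differences depended on the scaling. Under quantile normalization the first probes gave -0.06 for Serpina1a and 0.00 for Serpina1e after fasting, and -0.07 and -0.03 after refeeding. The signals as deposited gave -0.02 and 0.02 after fasting and -0.02 and 0.05 after refeeding. The scaled shift was shared by other bright genes: 340 genes with a signal above 50000 on all 4 arrays had a median log2 difference of -0.42 after fasting, with -0.69 and -0.14 as 10th and 90th percentile. After refeeding their median was -0.26, from -0.67 to 0.04. Under quantile normalization these medians were -0.01 and 0.00.

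No member spot was saturated. The first Serpina1a probe reached from 66.4% to 69.4% of the saturation value of the scanner, and the first Serpina1e probe from 56.2% to 58.0%. Whether signals this bright still follow the amount of RNA was not tested. A change of the antitrypsin RNAs between the genotypes was therefore not measurable independently of the scaling.

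**Figure D2:**
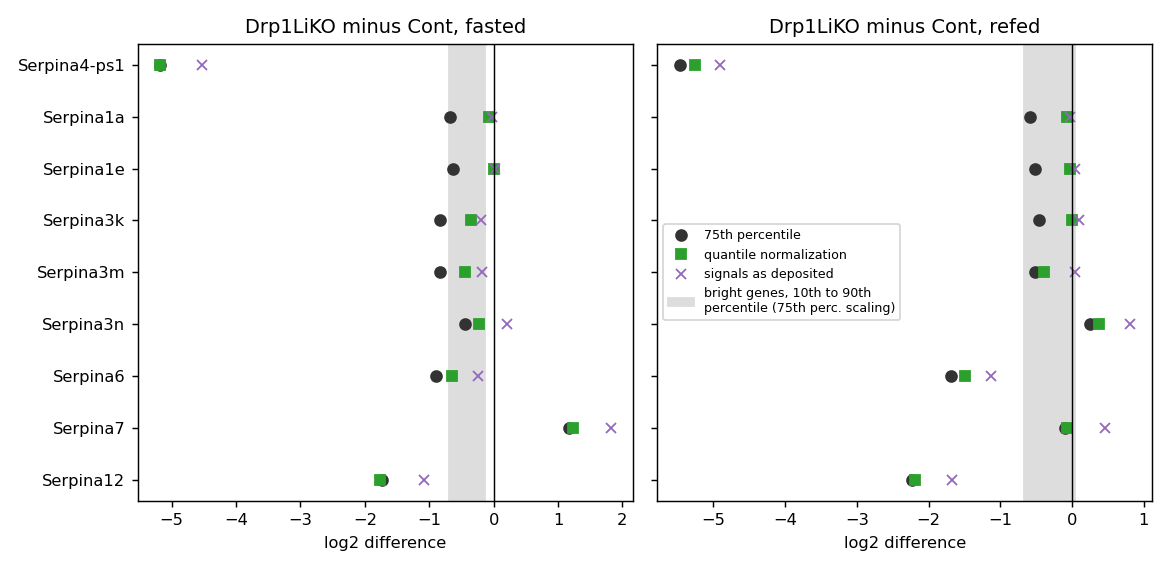
Log2 difference between Drp1LiKO and Cont of the representative probe of each of the 9 measured genes after fasting (left) and refeeding (right), under 75th percentile scaling (circles), quantile normalization (squares) and with signals as deposited (crosses). The gray band runs from the 10th to the 90th percentile of 340 bright genes under 75th percentile scaling, -0.69 to -0.14 after fasting, and Serpina1a and Serpina1e lie inside it and move close to 0 under quantile normalization while Serpina4-ps1 stays below -5 there. The fasted Serpina12 value rests on a Drp1LiKO signal that was not well above background.

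Serpina3k, known as contrapsin and as an inhibitor of kallikrein, had signals of 214799 and 188059 after fasting and of 207489 and 221628 after refeeding, Cont first. The log2 difference between genotypes was -0.84 (SE 0.20) in the fasted pair and -0.46 (SE 0.20) in the refed pair, and -0.36 and 0.00 under quantile normalization. The Drp1LiKO liver was the lowest of the 4 after fasting and the highest in signal after refeeding. With refeeding Serpina3k was 0.32 (SE 0.20) higher in Cont and 0.69 (SE 0.20) higher in Drp1LiKO on the log2 scale. Under quantile normalization these became 0.00 and 0.36.

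Serpina3m, a neighbour of the same subfamily, had signals of 82241 and 72529 after fasting and of 80315 and 82426 after refeeding, with Cont first. Its log2 difference between genotypes was -0.83 (SE 0.20) in the fasted pair and -0.52 (SE 0.20) in the refed pair. Under quantile normalization it was -0.44 and -0.39, so the sign was kept while the size was smaller. Its refeeding difference was 0.33 (SE 0.20) in Cont and 0.64 (SE 0.20) in Drp1LiKO, and 0.05 and 0.10 under quantile normalization. The probe of Serpina3k lies at chr12:105583645-105583704 and that of Serpina3m at chr12:105632110-105632169, both on the plus strand, and neither shares a long run of bases with a probe of another Serpina gene.

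Serpina3n, an inducible acute-phase member of the antichymotrypsin group, had a signal of 7398 in Cont and 8539 in Drp1LiKO after fasting, and of 4321 and 7552 after refeeding. Relative to the 75th percentile its order from low to high was Drp1LiKO fasted, Cont refed, Drp1LiKO refed and Cont fasted, and the 4 levels spanned 3.56 to 4.01 on the log2 scale. The difference between genotypes was -0.44 (SE 0.20) in the fasted pair and 0.25 (SE 0.20) in the refed pair. The refeeding difference was -0.41 (SE 0.20) in Cont and 0.28 (SE 0.20) in Drp1LiKO. The difference of the differences was 0.69 (SE 0.29), and 0.60 under quantile normalization. Without any scaling between arrays the genotype differences were 0.21 and 0.81, so the sign after fasting rests on the scaling. No scaled value reached 2-fold.

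**Figure D3:**
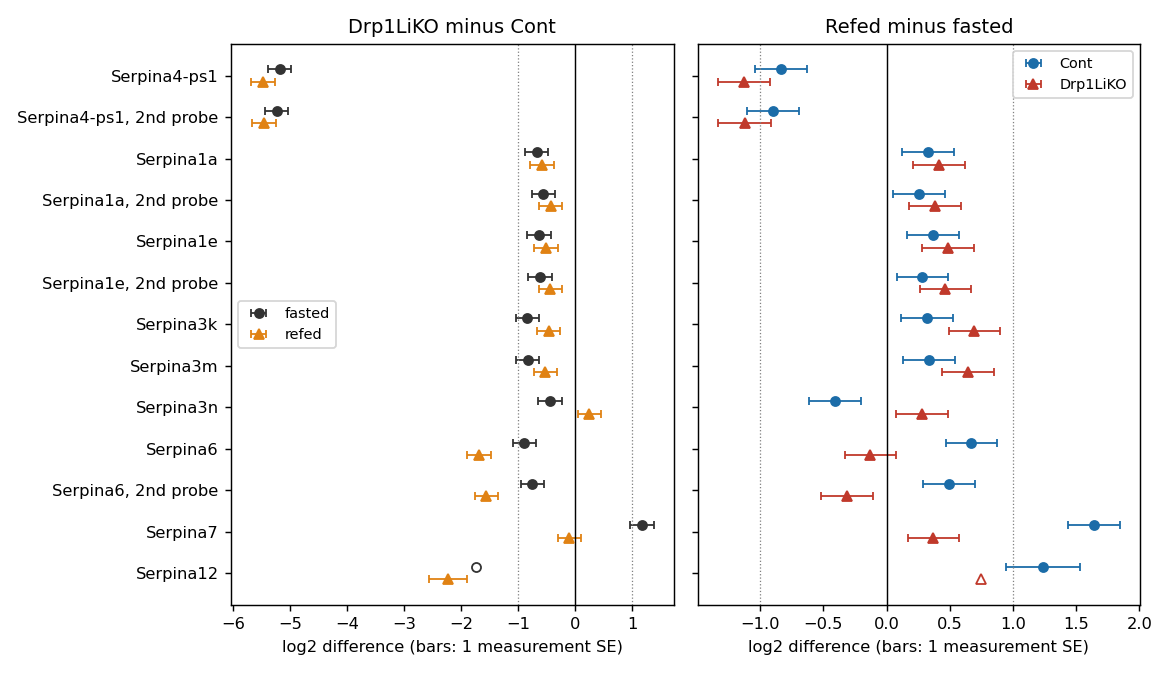
Log2 differences of the 13 probes between Drp1LiKO and Cont (left, fasted circles and refed triangles) and between refed and fasted livers (right, Cont circles and Drp1LiKO triangles). Bars are 1 measurement SE without animal spread, dotted lines mark 2-fold, and open symbols have 1 signal that was not well above background. Both Serpina4-ps1 probes lie below -5 on the left, and Serpina3n, Serpina6 and Serpina7 differ most between feeding states.

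Serpina6, the corticosteroid-binding globulin of plasma, has 2 probes that lie apart, at chr12:104884880-104884939 and chr12:104886817-104886876. The first had a signal of 14642 in Cont and 12406 in Drp1LiKO after fasting, and of 18051 and 8266 after refeeding. The second had 3025, 2821, 3301 and 1653. On both probes the refed Cont liver was the brightest and the refed Drp1LiKO liver the dimmest. The log2 difference between genotypes on the first probe was -0.89 (SE 0.20) in the fasted pair and -1.69 (SE 0.20) in the refed pair, which is 1.85-fold and 3.22-fold lower. The second probe gave -0.75 (SE 0.20) and -1.56 (SE 0.20).

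Refeeding and genotype combined unequally for Serpina6. On the first probe the refed Cont liver was 0.67 (SE 0.20) above the fasted one, and the refed Drp1LiKO liver was at -0.13 (SE 0.20) against the fasted one, less than its SE. The second probe gave 0.49 and -0.31. The difference of the genotype differences was -0.80 (SE 0.29) on the first and -0.81 (SE 0.29) on the second probe, and -0.84 and -0.80 under quantile normalization. The 2 probes read RNA of the same livers, so their likeness says nothing about the spread between animals.

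Serpina7, the thyroxine-binding globulin, had a signal of 359 in Cont and 1264 in Drp1LiKO after fasting, and of 866 and 1190 after refeeding. The fasted Cont liver stood below the other 3, which lay between 0.81 and 1.28 on the log2 scale relative to the 75th percentile, against -0.36 in the fasted Cont liver. The log2 difference between genotypes was 1.17 (SE 0.21) after fasting, 2.25-fold higher in Drp1LiKO, and -0.10 (SE 0.20) after refeeding. The refeeding difference was 1.64 (SE 0.21) in Cont, 3.12-fold higher, and 0.37 (SE 0.20) in Drp1LiKO. The difference of the genotype differences was -1.27 (SE 0.29), and -1.29 under quantile normalization. The file gives its probe 655 bases of chromosome X, chrX:135615848-135616502 on the minus strand, which is longer than the probe of 60 bases.

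Serpina12, the gene of vaspin, had a signal of 48.1 in Cont and 22.7 in Drp1LiKO after fasting, and of 87.9 and 27.6 after refeeding. The fasted Drp1LiKO signal was not well above background, so comparisons with it are bounds. Serpina12 was at least 2.83-fold lower in Drp1LiKO after fasting. After refeeding it was lower by a log2 difference of -2.23 (SE 0.33), which is 4.69-fold. With refeeding it was 1.24 (SE 0.29) higher in Cont, 2.36-fold. In Drp1LiKO the refeeding difference was 0.74 (SE 0.47), with a bound of 1.43-fold, so a rise there is not established. The bounds leave the SE out. All these values depend on the background correction: with normexp the genotype differences were -0.83 and -1.23. The refeeding difference was then 0.73 in Cont and 0.33 in Drp1LiKO. Those between the fasted livers and with refeeding in Cont no longer reached 2-fold, and both bounds were no longer met.

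With refeeding in Cont, Serpina7 and Serpina12 were the 2 listed genes at least 2-fold higher, beside 4.47% of 16437 genes, and none was at least 2-fold lower, beside 5.83%. In Drp1LiKO none was at least 2-fold higher, beside 5.61%. The median refeeding difference of the 9 genes was 0.33 in Cont and 0.42 in Drp1LiKO, and 0.09 and 0.08 over all genes. Under quantile normalization the medians of the 9 genes were 0.00 and 0.03.

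Because vaspin is known from fat tissue, 10 adipocyte markers were read beside Serpina12. Of these, 6 had a signal well above background in some liver, and the defining genes Adipoq, Lep, Retn and Plin1 were not well above background on any array. The summed signal of the 6 measured markers relative to the 75th percentile was 20.9 in Cont and 17.9 in Drp1LiKO after fasting, and 55.8 and 12.1 after refeeding. It was highest in the refed Cont liver, where Serpina12 was highest too. After fasting 4 of the 6 markers were at least 2-fold lower in Drp1LiKO and 1 higher, beside 5.19% and 8.06% of all genes. After refeeding 3 were lower, beside 6.33%. Under quantile normalization 3 were lower and 1 higher after fasting, and 3 lower after refeeding. Cfd and Cidea, which livers with much stored fat also express, had differences of -5.07 and -3.12 after fasting and -6.27 and -6.11 after refeeding. Plin4 was lower in both states as well, by -1.03 and -1.39. Only markers at least 2-fold changed in both states are named, so the 1 that was higher after fasting is not. Whether the Serpina12 signal came from fat cells was not tested.

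In the RefSeq order along chromosome 12, Serpina4-ps1 stands between Serpina12 on one side and Serpina5 on the other. The gene beyond Serpina12 is Serpina9, a serpin known from germinal centre B cells. Serpina9 is not on the list, and it was the 1 gene among the 15 other clade A serpins on the array that was at least 2-fold lower in both feeding states. Its signal was 124 in Cont and 40.6 in Drp1LiKO after fasting, and 457 and 132 after refeeding, all well above background. The log2 difference was -2.26 (SE 0.30) in the fasted pair and -2.35 (SE 0.21) in the refed pair. Serpina9, Serpina12 and Serpina4-ps1 thus stand side by side in the order. With refeeding Serpina9 and Serpina12 were higher in Cont, by 2.25 and 1.24, where Serpina4-ps1 was at -0.84.

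**Figure D4:**
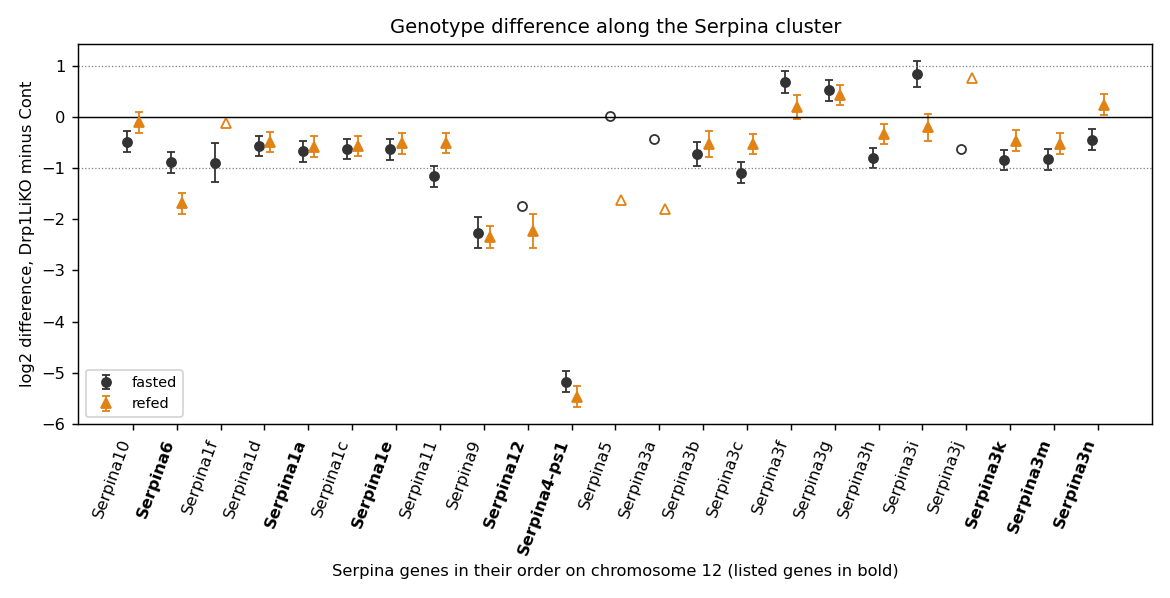
Log2 difference between Drp1LiKO and Cont (y axis) of the Serpina genes with a probe, in their order on chromosome 12 and not to scale (x axis), after fasting (circles) and refeeding (triangles). Bars are 1 measurement SE, dotted lines mark 2-fold, open symbols have a signal not well above background, and listed genes are in bold. Serpina9, Serpina12 and Serpina4-ps1 stand next to each other, at -2.35, -2.23 and -5.47 after refeeding.

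Counts in the gene lists below are to be set beside the shares over all genes. After fasting 8.06% were at least 2-fold higher and 5.19% lower in Drp1LiKO, and after refeeding 8.05% and 6.33%. With refeeding 4.47% were higher and 5.83% lower in Cont, and 5.61% and 7.15% in Drp1LiKO. No count was tested against these shares. Of the 15 other clade A serpins, 12 had a signal well above background in at least 1 liver. Of these, 3 were at least 2-fold lower and none higher in Drp1LiKO after fasting, with a median log2 difference of -0.67, and after refeeding 1 was lower and none higher, with a median of -0.41. The lower genes after fasting were Serpina9, Serpina11 at -1.16 (SE 0.20) and Serpina3c at -1.09 (SE 0.20), and the last 2 were at -0.51 and -0.52 after refeeding. Under quantile normalization the medians were -0.42 and -0.08, and after fasting Serpina11 at -0.93 and Serpina3c at -0.89 were no longer called, which left 1 gene, Serpina9. Serpina5 and Serpina3a, the next genes on the far side of Serpina4-ps1, were not well above background on any array and give no comparison. Serpina1c and Serpina1d, the remaining antitrypsin genes, were at -0.62 and -0.56 after fasting and at -0.56 and -0.49 after refeeding under 75th percentile scaling. Under quantile normalization they were at 0.03 and 0.05 after fasting and at -0.02 and 0.07 after refeeding. Of 37 serpins of other clades, 19 were measured, with medians of 0.09 and -0.05, 1 higher and 2 lower after fasting and 1 lower after refeeding.

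The plasma and tissue proteases that serpins inhibit were read next. Of 16 on the list 13 were measured, with median differences of -0.24 after fasting and -0.07 after refeeding. After fasting 2 were at least 2-fold higher in Drp1LiKO and none lower, and after refeeding 1 was. Ctsl, a lysosomal cysteine protease, was higher in both states, by 1.12 and 1.46. Elane, the elastase that alpha-1 antitrypsin inhibits, was at -0.19 and -0.25. Klkb1, the plasma kallikrein, was at -0.77 and -0.99.

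The hormone carriers and the genes around them are the setting of Serpina6 and Serpina7. Of 16 genes 15 were measured, with medians of -0.48 after fasting and -0.51 after refeeding, 1 higher and 1 lower after fasting and 3 lower after refeeding. Under quantile normalization 2 were higher and 1 lower after fasting, and 1 higher and 1 lower after refeeding, and the medians were -0.14 and -0.31. Ttr, another plasma carrier of thyroxine, was at -0.63 and -0.66, where Serpina7 was at 1.17 and -0.10. Under quantile normalization Ttr was at -0.14 and -0.31 and Serpina7 at 1.23 and -0.065, so most of the fasted Ttr value rests on the scaling. Nr3c1, the receptor of the glucocorticoid that Serpina6 carries, was at -0.18 and -0.11. Other genes of the list went both ways. Tat was at 1.04 and 0.98 and Tsc22d3 at 0.83 and 0.55. Hsd11b1 was at -0.94 and -0.94, Fkbp5 at -0.29 and -0.41 and Per1 at -0.195 and -0.06. Thrsp, a lipogenic gene responsive to thyroid hormone, was lower in both states, by -2.00 and -1.32, and higher with refeeding in both genotypes, by 2.71 and 3.39.

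Alpha-1 antitrypsin folds in the endoplasmic reticulum and leaves it by a cargo receptor, and 12 genes of this route were all measured. Their median was -0.47 after fasting and -0.19 after refeeding, with 1 gene lower after fasting and no call after refeeding. With refeeding in Drp1LiKO 4 of the 12 were at least 2-fold higher, beside 5.61% of all genes, and none in Cont, beside 4.47%. Under quantile normalization 2 of the 4 remained, Calr at 1.001 and Pdia4 at 1.01, while Hspa5 was at 0.82 and Hsp90b1 at 0.66. Lman1, the cargo receptor of antitrypsin, was at -0.35 and -0.18 between genotypes.

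Among regulators of serpin genes, Onecut1, a hepatocyte transcription factor, was lower in Drp1LiKO in both feeding states, by -2.00 and -1.54. Ppara, the nuclear receptor of the fasting response, was lower in both too, by -1.06 and -1.39. Under quantile normalization Ppara was at -0.82 after fasting, short of 2-fold, and at -1.19 after refeeding.

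Around Serpina3n, 22 acute-phase genes were all measured. Their median was -0.60 after fasting and -0.03 after refeeding, where Serpina3n was at -0.44 and 0.25. After fasting 4 were at least 2-fold lower in Drp1LiKO and none higher, and after refeeding 2 were higher and 1 lower. With refeeding the median was -0.09 in Cont, with 1 higher and 2 lower, and 0.48 in Drp1LiKO, with 7 higher and 2 lower. Under quantile normalization these counts were 0 and 2 in Cont and 6 and 3 in Drp1LiKO, and between the fasted livers 1 higher and 3 lower. Of all genes, 4.47% were higher and 5.83% lower with refeeding in Cont, and 5.61% and 7.15% in Drp1LiKO. Saa4 was lower in both feeding states, by -1.55 and -1.42. Of 6 neutrophil markers, Ngp was at background level in all 4 livers and was left out. The summed signal of the other 5 was 5.02, 2.65, 5.26 and 9.36 in Cont fasted, Drp1LiKO fasted, Cont refed and Drp1LiKO refed. That of 8 macrophage markers was 95.8, 111.6, 106.9 and 187.6 in the same order. The median genotype difference of the macrophage markers was 0.21 after fasting, with 2 of 8 at least 2-fold higher, and 0.70 after refeeding, with 3 higher. None was lower. Lyz2 and Marco of that list were higher in Drp1LiKO in both feeding states, by 1.38 and 1.53 and by 1.65 and 1.61. For the 5 neutrophil markers measured the median was -1.04 after fasting, with 3 lower and 0 higher, and 0.73 after refeeding, with 1 higher and 0 lower. The part of these cells in the Serpina3n values was not tested.

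Some Serpina genes of rodent liver are controlled by growth hormone, so sex-biased genes were read as well. Of 20 male-biased and growth-hormone-dependent genes 19 were measured, with medians of -0.63 after fasting and -0.53 after refeeding, 2 higher and 5 lower after fasting and 4 lower after refeeding. Hsd3b5, a male-specific steroid dehydrogenase, was lower in both states, by -4.87 and -2.20, and Socs2, a target of growth hormone, by -1.84 and -2.05. Of 15 female-biased genes 10 were measured, with medians of -1.02 and -1.44, 4 lower after fasting, and 6 lower and 1 higher after refeeding. Lower in both states were Cyp2b13, a cytochrome P450, by -1.66 and -3.47, Acot3, an acyl-CoA thioesterase, by -2.05 and -3.34, and Cyp17a1, a steroid hydroxylase, by -1.19 and -1.20. Both lists had more genes lower than higher in Drp1LiKO in each feeding state. Over all genes 5.19% were lower and 8.06% higher after fasting, and 6.33% and 8.05% after refeeding. Nothing is read from this, because the lists were chosen with earlier results of these data known. Of the list medians given between genotypes, those of the other serpin clades, the proteases and the acute-phase genes after refeeding changed sign under quantile normalization, to 0.07, 0.01 and 0.03.

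The genes whose pattern over the 4 arrays was nearest to that of a listed gene were found by the distance between log2 values centred on their mean, among 14447 genes well above background on all 4 arrays. For Serpina4-ps1 they were Aatk at a distance of 1.75, an unnamed probe (A_55_P2151956) at 2.11 and Cox8b, a cytochrome oxidase subunit isoform of muscle and brown fat, at 2.24. This distance grows with the size of the differences, and the genotype differences of Serpina4-ps1 were the largest of the listed genes. The distances therefore do not tell whether another gene had a pattern of like shape. Aatk was lower in Drp1LiKO by -3.49 after fasting and -4.62 after refeeding.

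For Serpina3n the nearest were Wwc1 at 0.07, an unnamed probe (A_55_P2093665) at 0.07 and Cyp3a13, a cytochrome P450, at 0.08. For Serpina7 they were S100a4 at 0.20, Hamp, which encodes the iron hormone hepcidin, at 0.24 and Pkmyt1 at 0.32. Hamp was at 0.91 and -0.16 between genotypes, where Serpina7 was at 1.17 and -0.10. For Serpina12 they were A930033H14Rik at 0.48, an unnamed probe (A_55_P2038514) at 0.49 and the potassium channel gene Kcnk10 at 0.49. The fasted Drp1LiKO value of Serpina12 was not well above background, so its distances are not exact and give no order. With 4 arrays such likeness is a description only.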

How the data were processed

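The data are 4 one-color arrays of mouse liver RNA, 1 per group. The intensity values used are processed signals as deposited by the authors in the scanner files, background-subtracted by Agilent Feature Extraction (version 9.5.1.1 in the submitters' processing notes, modules 10.7.1.1 in the file headers) and not normalized between arrays. The authors' table of normalized values, given as log2 here, was deposited for the same 39429 probes and differed by at most 0.00426 log2 on the 13 probes from a quantile normalization of the signals. Positions of probes use mm9, the build of the files.

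Log2 signals were set relative to the 75th percentile of each array. Outlier-flagged spots were left out, which removed 37 probes, and repeated spots were averaged. Names were updated by accession for 26761 probes from RefSeq (GRCm38.p6). Of several probes for a gene, the one detected well above background most often was used, and of equals the brightest on average. Genes counted as higher or lower at 2-fold where at least the brighter signal exceeded background well. Bounds were computed by raising a dim signal to the lowest one on its array that was well above background. The SE comes from the scanner error model, and the SD of 399 repeated probes was 0.064 to 0.071 log2. The number of arrays limits the precision.

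The members and gene lists were chosen with earlier results of these data known. Named were all listed genes, genes of the lists given that were at least 2-fold changed between genotypes in both feeding states, and the 3 nearest patterns for 4 genes. List genes named at other values, and the 340 genes brighter than 50000, were chosen after their values were seen. Alternatives were median scaling, quantile normalization, normexp background correction (offset 50, limma 3.58.1 in R 4.3.3), the authors' values, the median over probes, 3 other detection filters, bounds and a 1.5-fold threshold. Comparison without scaling was added after seeing the data. The procedure was tested on simulated data. Scripts ran in Python 3.11.15 (numpy 2.4.6, pandas 2.3.3, matplotlib 3.10.9). No statistical test was run, as each group has 1 array. Some genes of these lists and the promoter search are not reported here.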

Additional observations from a re-analysis of the deposited data

Results flagged for a closer look

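Serpina3n had a genotype difference of -0.44 on the log2 scale after fasting and of 0.25 after refeeding, and a refeeding difference of -0.41 in Cont and 0.28 in Drp1LiKO. Serpina6 had a refeeding difference of 0.67 in Cont and of -0.13 in Drp1LiKO. Serpina7 had a genotype difference of 1.17 after fasting and of -0.10 after refeeding. These were singled out because the single array of one condition moved one way and that of the other the opposite way. With 1 array per condition the differences were not tested. Of these values -0.13 and -0.10 lie within 1 SE of 0.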

How the results depend on the processing

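No paired analysis was possible because each group has 1 array. No difference of at least 2-fold changed its direction under any alternative, and the genotype differences of Serpina4-ps1 stayed between -4.53 and -5.47 on the log2 scale over all of them. The count of 2 genes lower in Drp1LiKO after fasting became 1 with normexp background correction. It was also 1 when both or all 4 signals had to be well above background. Serpina12 drops out in each of these. At a 1.5-fold threshold the count became 7. Serpina1a, Serpina1e, Serpina3k and Serpina3m are among the 7, and under quantile normalization they lay from -0.44 to 0.00. With refeeding in Cont, the 2 genes higher became 1 with normexp, with all 4 signals well above background and with signals as deposited. The count of 0 lower became 1, Serpina4-ps1, with quantile normalization, the authors' normalized values, signals as deposited and the 1.5-fold threshold. With refeeding in Drp1LiKO, 0 genes higher became 3 at 1.5-fold, and the 1 gene lower became 0 with normexp. The share of all genes at 1.5-fold was not computed, so nothing is read from the counts at that threshold. Of the recomputed counts and differences of differences, 84 stayed within 1.5 times or within the SE and 13 did not. Of the single differences, 169 stayed within their SE and 83 did not, all of them under quantile normalization, the authors' values, no scaling or normexp. Differences of Serpina1a, Serpina1e, Serpina3k and Serpina3m under 2-fold went to 0 or changed sign under some of these, and those of Serpina3n and Serpina7 without scaling. The signal of Serpina12, near background, limits what can be said of it.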
